A study of Homo sapiens with 4 samples.

Results

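DNA methylation, methylation of histone H3 at lysine 9 (H3K9) and the Polycomb complexes are the main systems that keep genes and repeats silent, and the RNA levels of 39 genes of these systems were followed in hTERT-RPE1 cells. The genes were taken by symbol from the deposited gene count table, 39 of 19653 genes, and fall into DNA methylation and TET (12 genes), H3K9 writers and HP1 (12), HUSH and MORC (5), Polycomb (8) and HMGB chromatin proteins (2). These are human cells from the retinal pigment epithelium that telomerase keeps dividing. The cells labelled sg53BP1, of genotype 53BP1 knockout, carried a lentiviral CRISPR-Cas9 construct targeting 53BP1, a chromatin-binding protein of DNA break repair encoded by TP53BP1. The cells labelled sgControl, of genotype WT, expressed Cas9 from the vector and had no guide. Neither group was treated further, and each has 2 RNA-seq libraries. No label tells whether libraries of 1 group are separate cultures or clones. The p-values therefore measure the spread between these samples alone, which may be technical.

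In dividing cells such as these, DNMT1 copies methyl marks onto the new DNA strand at the replication fork, where UHRF1 recruits it to hemimethylated sites, while DNMT3A and DNMT3B add marks at new sites and the TET enzymes oxidise them. SUV39H, SETDB1 and the EHMT enzymes methylate H3K9, which the HP1 proteins read, and the HUSH complex uses the same mark to silence repeats and transgenes. Polycomb repressive complex 2 (PRC2) methylates lysine 27 of histone H3 through EZH1 or EZH2, and Polycomb repressive complex 1 ubiquitinates histone H2A through RING1 or RNF2.

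Libraries held 16654411 to 18164086 counts, and all 39 genes were abundant enough to be tested. TP53BP1, the targeted gene, was higher and not lower in the libraries labelled sg53BP1, with 431 and 594 counts in those labelled sgControl against 1743 and 1516, so each direction below follows the group labels and would turn if they were exchanged. The TP53BP1 difference, 1.56 on the log2 scale (edgeR quasi-likelihood test, adjusted p = 0.00224), lost its call without sg53BP1 replicate 1 (adjusted p = 0.144) or replicate 2 (adjusted p = 0.106). The sgControl libraries lay further apart than the sg53BP1 libraries (Pearson r of log2 levels across 13140 genes, which are not independent replicates, 0.967 and 0.992). Of the markers of retinal pigment epithelium, MITF was present at 29.2 to 37.6 CPM (counts scaled to a common library size, with TMM factors) and OTX2 at 6.87 to 12.2 CPM. RLBP1, BEST1, TYR, TYRP1, DCT, PMEL, SERPINF1 and LRAT stayed at or under 3.11 CPM in each library. RPE65, TTR and RGR were not found by symbol in the count table. The epithelial keratins KRT8 and KRT18 stood at 484 to 849.7 and 109.7 to 170 CPM, CDH1 and EPCAM had at most 2 counts in a library, and leukocyte markers summed to at most 1.37 CPM. KRT19, the remaining marker of the 5 for epithelium, had too few counts to be tested. Endothelial markers summed to 6.02 and 15.8 CPM under the sgControl label and to 3.82 and 2.33 CPM under the sg53BP1 label. Fibroblast markers summed to 336 to 379 CPM in the libraries labelled sgControl and 203 to 213 CPM in those labelled sg53BP1, and 2 of 5 tested, THY1 and PDGFRA, fell, though neither passed without sg53BP1 replicate 1 or 2 (adjusted p between 0.230 and 0.569) and PDGFRA did not with limma-voom (adjusted p = 0.0750). Their part in the results below was not tested.

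The stretches of promoter shown here belong to the 4 silencing genes that passed the test, DNMT1, UHRF1, DNMT3B and JARID2, and to HELLS and EZH2, which lay nearest to them among the genes of replicating cells. They come from the RefSeq promoter table on GRCh38.p14, another build than that of the counts (hg19), and run 5′ to 3′ on the gene's strand from 90 bases before the table's start of the gene to 15 bases into it. Capitals mark matches to the E2F-type motifs TTTGGCGC, TTTCCCGC, TTTGCCGC and TTTCGCGC on either strand, E2F being the family of transcription factors that drives genes of DNA replication.
DNMT1 (chr19:10194939-10195043, minus strand): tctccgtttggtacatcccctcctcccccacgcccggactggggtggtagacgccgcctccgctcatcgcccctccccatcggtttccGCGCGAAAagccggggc
UHRF1 (chr19:4909411-4909515, plus strand): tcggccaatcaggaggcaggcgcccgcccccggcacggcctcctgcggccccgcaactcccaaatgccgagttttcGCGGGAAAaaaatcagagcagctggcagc
DNMT3B (chr20:32779762-32779866, plus strand): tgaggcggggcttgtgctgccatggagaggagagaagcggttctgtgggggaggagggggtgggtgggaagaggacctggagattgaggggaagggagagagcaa
HELLS (chr10:94545698-94545802, plus strand): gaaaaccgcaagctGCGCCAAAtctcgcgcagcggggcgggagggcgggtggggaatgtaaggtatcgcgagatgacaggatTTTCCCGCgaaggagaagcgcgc
EZH2 (chr7:148884277-148884381, minus strand): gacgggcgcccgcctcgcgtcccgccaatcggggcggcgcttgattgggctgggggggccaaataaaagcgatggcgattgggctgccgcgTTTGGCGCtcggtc
JARID2 (chr6:15245979-15246083, plus strand): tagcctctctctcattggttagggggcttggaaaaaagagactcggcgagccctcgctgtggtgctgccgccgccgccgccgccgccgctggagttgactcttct

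DNMT1, UHRF1 and EZH2 each hold 1 such match within 14 bases of the start, and HELLS holds 2, at 76 and 8 bases before it. Neither DNMT3B nor JARID2 holds one in the window of 300 bases that was searched, 250 before the start and 50 from it. Promoters were found for 35 of the 39 genes, the others being ATRX, DAXX, HMGB2 and TRIM28. An E2F-type match stood in 7 of the 35 (20.0%), the remaining ones being EZH1, SUZ12 and CBX3, against 5.42% of 10543 promoters of tested genes and 3.31% of all 35116 promoters. A match to the CHR-type motifs TTTGAA or TTCGAA, found in genes of G2 and mitosis, stood in 4 of the 35 (11.4%), MBD2, SUV39H2, SUZ12 and TET2, against 11.7% of promoters of tested genes. In these 35 promoters no E2F-type match overlapped a CHR-type match. The DNMT3B window held 3 CpG dinucleotides, the lowest count of the 35, where the median was 29 for the silencing genes and 26 for the tested genes. Only 1 start per gene was searched, and whether it is the main start was not checked for DNMT3B. Its CpG count and its lack of a match therefore hold for this window alone. A match describes the letters only.

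Of the 39 silencing genes, 3 rose and 1 fell in the libraries labelled sg53BP1 (edgeR quasi-likelihood test, adjusted p under 0.05 over 13140 genes), and 35 did not pass. The maintenance methylation genes DNMT1 and UHRF1 and the de novo methyltransferase gene DNMT3B rose, and JARID2, an accessory subunit of PRC2, fell. Called genes were 10.3% of the silencing genes against 5.08% of all tested genes, 7.69% against 2.07% among increases and 2.56% against 3.01% among decreases. These shares rest on 4 genes. The median log2 fold change was 0.093 over the silencing genes and −0.019 over all tested genes, and 26 of 39 were positive (66.7%, against 47.4% of all tested genes). Both sg53BP1 libraries lay above both sgControl libraries for 16 of the 39 (41.0%, against 24.8% of all tested genes) and below them for 6 (15.4%, against 25.9%). The silencing genes called under other settings were 5 with DESeq2 size factors (5.0% of all tested genes), 5 with library totals (4.98%), 7 with no low-count filter (7.88%), 4 at a mean of at least 5 CPM (5.26%), 5 with the DESeq2 Wald test (7.71%), 2 with limma-voom (3.07%) and 0 with a replicate block (2.26%). At an unadjusted p under 0.05, 9 of 39 passed (23.1%, against 19.3%). Without sg53BP1 replicate 1 or replicate 2 none of the 39 was called, and 5 of all tested genes were (0.0366%). Without sgControl replicate 1 the silencing genes called were 14, against 24.5% of all tested genes, and without sgControl replicate 2 they were 8, against 18.4%. In bulk RNA, more cells in a phase of the cell cycle and more RNA per cell cannot be told apart.

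**Figure D1:**
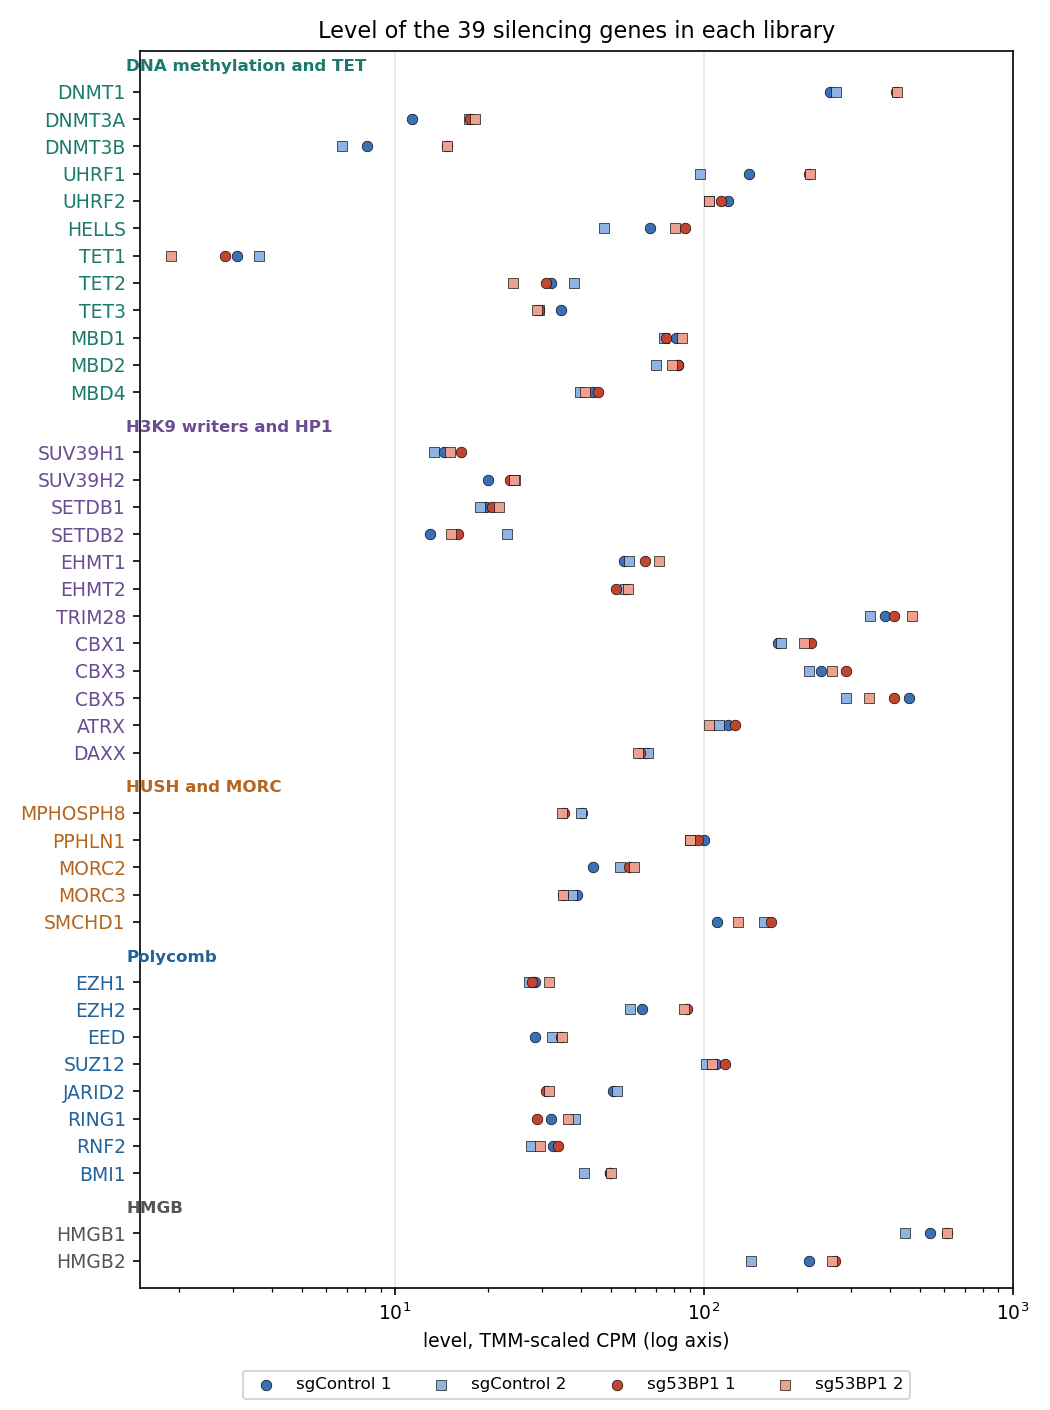
Level of each silencing gene in each library, in TMM-scaled CPM on a log axis, with 1 point per library and genes grouped by system. The sg53BP1 points of DNMT1, UHRF1 and DNMT3B lie to the right of both sgControl points, those of JARID2 to the left, and for most other genes the groups lie close together or overlap.

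**Figure D2:**
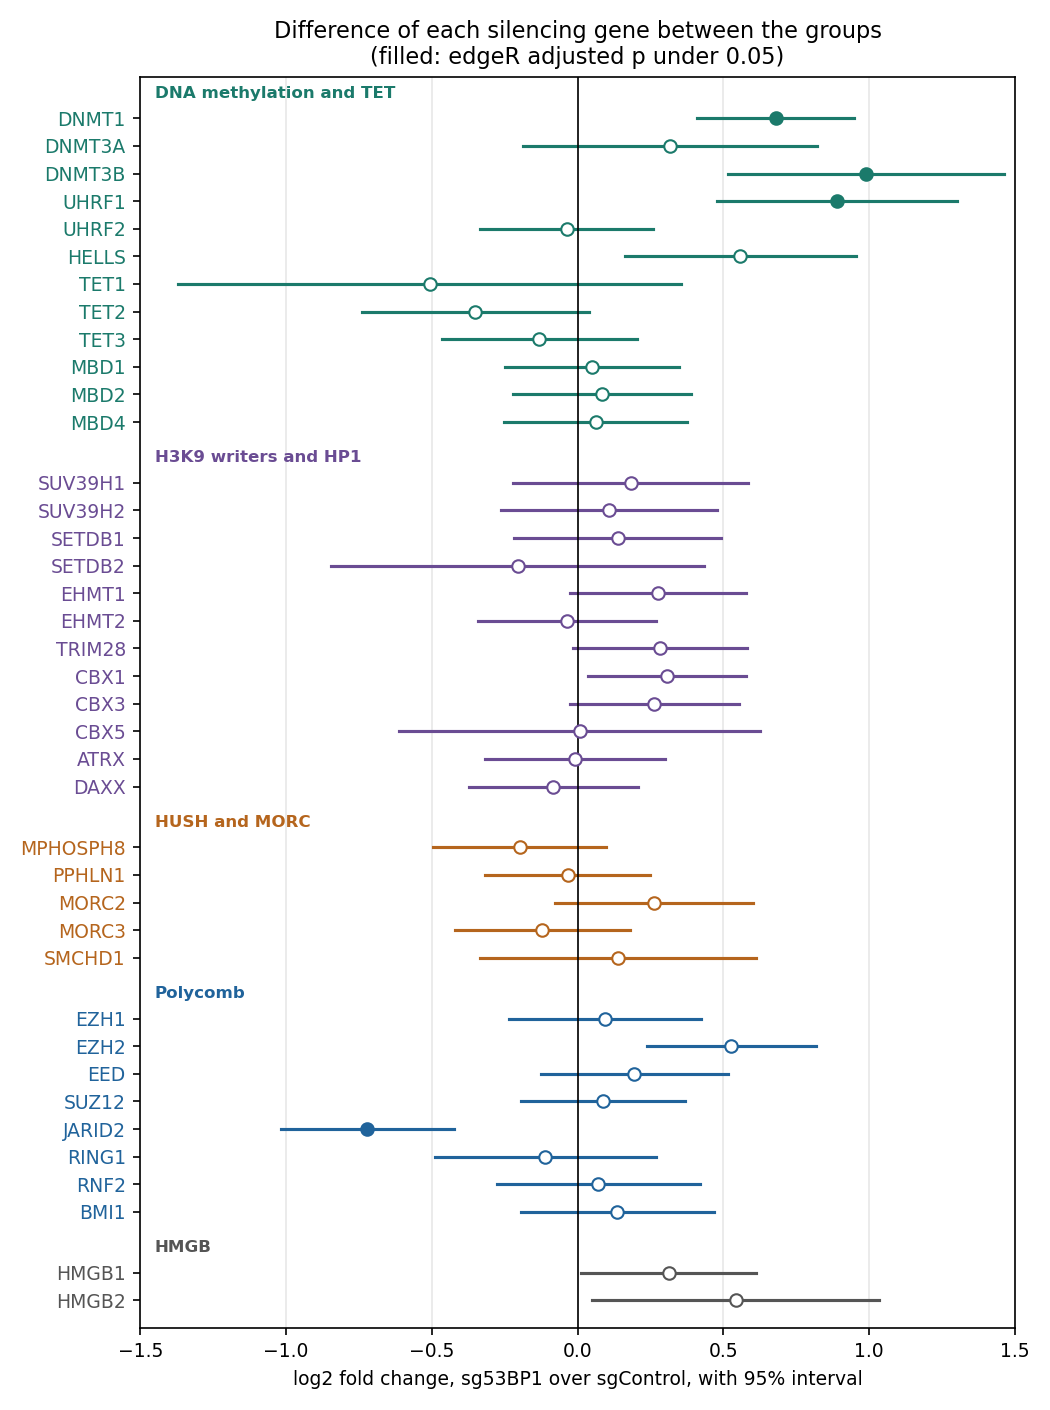
Log2 fold change of each silencing gene, sg53BP1 over sgControl, with its 95% interval from the edgeR quasi-likelihood fit; filled points passed an adjusted p of 0.05. DNMT1, DNMT3B and UHRF1 lie at 0.68, 0.99 and 0.89 and JARID2 at −0.72, while the intervals of most other genes cover 0.

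Of the maintenance methylation genes, DNMT1 and UHRF1 rose, and HELLS did not pass. DNMT1, the maintenance methyltransferase, was measured at 257 and 268 CPM under the sgControl label and at 419 and 422 CPM under the sg53BP1 label. The groups were well separated and the libraries of each group lay close together. DNMT1 rose 1.60-fold, with group means of 262 ± 8.23 and 421 ± 2.31 CPM (SD, n = 2 each), or 0.68 ± 0.12 (SE) on the log2 scale (edgeR adjusted p = 0.0142). UHRF1, the ubiquitin ligase that reads hemimethylated DNA and brings DNMT1 to it, was measured at 140 and 97.1 CPM against 218 and 222 CPM. Its sgControl libraries were unequal, replicate 1 being the higher, and both lay below the sg53BP1 libraries. UHRF1 rose 1.85-fold, or 0.89 ± 0.18 (SE) on the log2 scale (edgeR adjusted p = 0.0317). HELLS, a chromatin remodeller that DNA methylation needs in repeat-rich heterochromatin, stood at 66.8 and 47.5 CPM against 87.3 and 80.9 CPM. The HELLS groups did not overlap, but its difference of 0.56 on the log2 scale (standard error 0.17) did not pass (edgeR adjusted p = 0.121). Without sg53BP1 replicate 1 or 2 the calls were lost, for DNMT1 with adjusted p = 0.370 and 0.411 and for UHRF1 with adjusted p = 0.414 and 0.470, at log2 fold changes between 0.68 and 0.90. Without sgControl replicate 1 HELLS was called at 0.86 (adjusted p = 1.17e-07), and without sgControl replicate 2 it stood at 0.34 (adjusted p = 0.0741). UHRF1 also lost its call with limma-voom (adjusted p = 0.0555). By the authors' deposited table, whose sign is control over knockout, the adjusted p was 2.35e-05 for DNMT1, 1.34e-04 for UHRF1 and 0.0742 for HELLS. DNMT1 overlaps S1PR2 on the same strand in GENCODE release 29, a gene with 92 to 138 counts per library against 4260 to 7599 for DNMT1, and HELLS overlaps TBC1D12, with 476 to 615 counts.

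UHRF2, the close relative of UHRF1, did not pass. It was measured at 120 and 104 CPM under the sgControl label and at 114 and 104 CPM under the sg53BP1 label, and the groups overlapped. Its log2 fold change was −0.038, with a 95% interval of −0.33 to 0.26. Per kilobase of exon, the ratio of UHRF1 to UHRF2 was 0.862 and 0.689 under the sgControl label and 1.41 and 1.57 under the sg53BP1 label. On this scale UHRF2 was the more abundant of the pair in the sgControl libraries and UHRF1 in the sg53BP1 libraries. In counts the ratio was 1.17 and 0.934 under the sgControl label and 1.91 and 2.13 under the sg53BP1 label. The order in sgControl replicate 1 thus rests on the exon lengths used. A ratio within a library does not depend on how libraries are scaled.

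Of the de novo methyltransferases, DNMT3B rose and DNMT3A did not pass. DNMT3B was measured at 8.13 and 6.73 CPM under the sgControl label and at 14.7 and 14.8 CPM under the sg53BP1 label, or 135 and 113 against 266 and 266 counts. The groups did not overlap. The mean rose 1.98-fold from 7.43 ± 0.996 to 14.7 ± 0.0465 CPM (SD, n = 2 each), or 0.99 ± 0.21 (SE) on the log2 scale (edgeR adjusted p = 0.0317), the highest among the 39 genes. DNMT3A was measured at 11.3 and 17.4 CPM against 17.5 and 18.2 CPM. Here sgControl replicate 1 alone was low, and replicate 2 lay next to the sg53BP1 libraries. DNMT3A differed by 0.32 on the log2 scale (95% interval −0.19 to 0.82; edgeR adjusted p = 0.499), by 0.67 without sgControl replicate 2 (adjusted p = 0.00831) and by 0.073 without sgControl replicate 1. The DNMT3B call was lost without sg53BP1 replicate 1 or 2 (adjusted p = 0.478 and 0.522) and with limma-voom (adjusted p = 0.0580). The authors' deposited table gives adjusted p-values of 0.0162 for DNMT3B and 0.746 for DNMT3A. Per kilobase, the ratio of DNMT3B to DNMT3A was 1.67 and 0.897 under the sgControl label and 1.95 and 1.88 under the sg53BP1 label. Both genes were far below DNMT1: per kilobase of exon from the scaled CPM, means over the sgControl libraries were 43.2 for DNMT1, 1.34 for DNMT3A and 1.60 for DNMT3B.

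The TET genes, whose enzymes oxidise methylated cytosine, had negative log2 fold changes and none passed (edgeR; none of the 3 at an unadjusted p under 0.05, and none with DESeq2 or limma-voom). TET2 was measured at 31.9 and 38.2 CPM under the sgControl label and at 30.9 and 24.1 CPM under the sg53BP1 label, a log2 difference of −0.35 (95% interval −0.74 to 0.04; edgeR adjusted p = 0.312). The TET2 groups did not overlap, though sgControl replicate 1 and sg53BP1 replicate 1 lay close to each other. Without sgControl replicate 1 TET2 was called, at −0.44 (adjusted p = 0.0279), whereas it stood at −0.21 without sgControl replicate 2 (adjusted p = 0.432) and at −0.18 without sg53BP1 replicate 2 (adjusted p = 0.928). TET1 was the least abundant of the 39 genes, with 34 to 61 counts per library, and its interval of −1.37 to 0.35 was the widest. TET3 was measured at 28.9 to 34.5 CPM over the 4 libraries, with groups that overlapped and a log2 difference of −0.13. Among the readers of methylated DNA, MBD1, MBD2 and MBD4 (the last also a repair glycosylase) differed by 0.05 to 0.08 on the log2 scale, with overlapping groups and 95% intervals that reached no further than −0.25 and 0.39.

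Among 16 other genes of DNA methylation in the table, all tested, 3 rose (18.8%, against 2.07% of all tested genes) and 1 fell (6.25%, against 3.01%; edgeR adjusted p under 0.05), with a median log2 fold change of 0.008. CDCA7, the partner that HELLS needs for its remodelling activity, was measured at 22.1 and 17.7 CPM under the sgControl label and at 44.0 and 46.7 CPM under the sg53BP1 label. It rose 2.28-fold, or 1.19 ± 0.16 (SE) on the log2 scale (edgeR adjusted p = 0.00422). Its relative CDCA7L rose 1.67-fold (edgeR adjusted p = 0.0296), and PCNA, the sliding clamp of the replication fork to which DNMT1 binds, rose 1.48-fold (edgeR adjusted p = 0.0469). ZBTB38, a zinc-finger reader of methylated DNA, was measured at 425 and 380 against 268 and 239 CPM and fell 1.59-fold (edgeR adjusted p = 0.0223). Without sg53BP1 replicate 1 or 2 none of these 4 was called, with adjusted p between 0.179 for CDCA7 and 0.590 for ZBTB38. CDCA7L and PCNA also lost their calls with limma-voom (adjusted p = 0.0601 and 0.0759), and PCNA at a mean of at least 5 CPM (adjusted p = 0.0516).

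DNMT1, UHRF1, HELLS, EZH2 and HMGB2 are known to be expressed in dividing cells. Replication and mitosis genes of the same libraries are therefore given beside them. Of 40 replication genes, 16 rose, against 2.07% of all tested genes, none fell and 24 did not pass (edgeR adjusted p under 0.05). Their median log2 fold change was 0.57, and their summed level was 2772 and 2488 CPM under the sgControl label and 4036 and 3899.9 CPM under the sg53BP1 label. PCNA stands in this list as well, and the part of these genes in the differences of the silencing genes was not tested. Of 29 mitosis genes tested, 2 rose (6.90%) and none fell, with a median of 0.27. Without sg53BP1 replicate 1 or 2 none of either list was called, and without sgControl replicate 1 the replication and mitosis genes called were 33 and 19, all higher, where 24.5% of all tested genes were called in either direction. Without sgControl replicate 2 they were 26 and 3 (18.4% of all tested genes), and with limma-voom 9 and 1 (3.07%). Set against the mean log2 level of the 40 replication genes in its own library, DNMT1 stood at 2.50 and 2.76 in the sgControl libraries and at 2.69 and 2.76 in the sg53BP1 libraries. On this scale the DNMT1 groups overlapped, and so did those of HELLS (0.56 and 0.27 against 0.43 and 0.37) and HMGB2 (2.28 and 1.85 against 2.04 and 2.06). EZH2 stood at 0.48 and 0.55 against 0.45 and 0.47, the sg53BP1 libraries being slightly the lower. UHRF1, at 1.63 and 1.30 against 1.75 and 1.83, and DNMT3B, at −2.46 and −2.53 against −2.13 and −2.07, remained higher in both sg53BP1 libraries, by 0.33 and 0.40 at the mean. JARID2 stood at 0.16 and 0.41 against −1.06 and −0.98, a difference of −1.31. The mean of the replication genes itself rose by 0.59, and each gene stands lower on this scale by that amount. Without this reference the JARID2 log2 fold change was −0.72. The values on this scale describe each library, and no test was made on them.

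**Figure D3:**
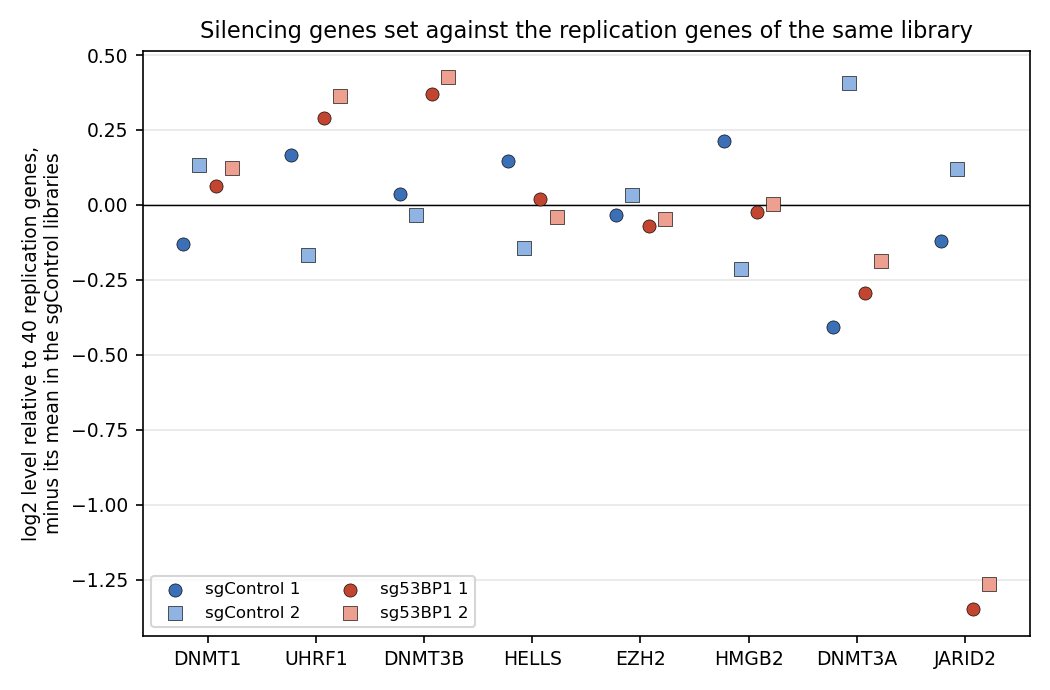
Log2 level of 8 silencing genes relative to the mean of 40 replication genes in the same library, each shifted so that its sgControl mean is 0, with 1 point per library. The sg53BP1 points of DNMT1, HELLS and HMGB2 fall between or beside the sgControl points, those of UHRF1 and DNMT3B lie above them, and those of JARID2 lie about 1.31 below the sgControl mean. The mean of the replication genes itself rose by 0.59, which lowers the sg53BP1 points of each gene by that amount.

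None of the 12 H3K9 writers, HP1 genes and their partners passed with edgeR, DESeq2 or limma-voom, and the median log2 fold change was 0.12. At an unadjusted edgeR p under 0.05, 1 of the 12, CBX1, passed (8.33%, against 19.3% of all tested genes). Among the methyltransferases, SUV39H1 was measured at 14.4 and 13.4 CPM under the sgControl label and at 16.4 and 15.1 CPM under the sg53BP1 label, a log2 difference of 0.18 (95% interval −0.22 to 0.59). SUV39H2, its paralogue, differed by 0.11 and SETDB1, the enzyme recruited to repeats by zinc-finger repressors, by 0.14, with intervals of −0.26 to 0.48 and −0.22 to 0.49. EHMT1 was measured at 55.3 and 57.2 CPM against 64.6 and 71.6 CPM (log2 difference 0.28, 95% interval −0.03 to 0.58; edgeR adjusted p = 0.304). EHMT2, with which EHMT1 forms a heterodimer, was measured at 56.1 and 55.5 CPM against 51.9 and 56.8 CPM (log2 difference −0.037). The EHMT1 groups were apart and the EHMT2 groups overlapped. SETDB2 had the widest gap of the 39 genes between sgControl libraries on the log2 scale, 0.82, at 13.0 and 23.0 CPM, and both sg53BP1 libraries lay between them at 16.0 and 15.2 CPM. Without sgControl replicate 1 SETDB2 was called lower at −0.53 (adjusted p = 0.0185), and without sgControl replicate 2 its difference was 0.28.

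TRIM28, the corepressor that links zinc-finger repressors to SETDB1, had the highest mean level per kilobase of the silencing genes in both groups. Its level was 385 and 344 CPM under the sgControl label and 414 and 474 CPM under the sg53BP1 label, which did not overlap, and the log2 difference of 0.28 did not pass (edgeR adjusted p = 0.286). Of the HP1 genes, CBX1 was measured at 174 and 178 CPM against 223 and 212 CPM (log2 difference 0.31, 95% interval 0.03 to 0.58; edgeR adjusted p = 0.207). CBX3 was measured at 240 and 218 CPM against 290 and 261 CPM (log2 difference 0.26; edgeR adjusted p = 0.305). CBX5, by contrast, stood at 462 and 289 CPM against 413 and 342 CPM, so that its sg53BP1 libraries lay between the sgControl libraries and the log2 difference was 0.007 (95% interval −0.61 to 0.63). Without sgControl replicate 1 the log2 differences of TRIM28, CBX1, CBX3 and CBX5 were 0.40, 0.32, 0.37 and 0.42. Without sgControl replicate 2 they were 0.21, 0.33, 0.20 and −0.29. ATRX and DAXX, which together deposit a histone H3 variant in heterochromatin, did not pass. ATRX overlapped between groups (120 and 112 against 126 and 104 CPM), and DAXX was measured at 64.8 and 66.1 against 62.2 and 61.4 CPM, a log2 difference of −0.083. CBX1 and CBX3 have 5 and 9 pseudogenes named after them in GENCODE release 29, so how reads of the near-identical copies were divided is uncertain, and CBX3 overlaps HNRNPA2B1, with 16447 to 23154 counts per library, on the opposite strand. Per the sources used here the counting strand is not given. Of 28 further H3K9 erasers and writer partners none passed with edgeR, DESeq2 or limma-voom, and the median log2 fold change was −0.001. At an unadjusted edgeR p under 0.05, 6 passed (21.4%, against 19.3% of all tested genes).

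None of the 5 HUSH and MORC genes passed (0 of 5 with edgeR, DESeq2 and limma-voom, and 0 at an unadjusted p under 0.05), with a median log2 fold change of −0.034. MPHOSPH8, the HUSH subunit that reads H3K9 methylation, was measured at 40.4 and 40.1 CPM under the sgControl label and at 35.3 and 34.8 CPM under the sg53BP1 label. The MPHOSPH8 libraries agreed closely within each group and the groups were apart, yet the difference was −0.20 on the log2 scale (95% interval −0.50 to 0.10; edgeR adjusted p = 0.465). PPHLN1, the periphilin subunit of HUSH, was measured at 100.4 and 90.3 against 95.7 and 90.5 CPM, and its groups overlapped. PRICKLE1, which overlaps it on the opposite strand, had 4 and 4 counts against 78 and 77. MORC2, an ATPase that acts with HUSH, was measured at 43.7 and 53.7 CPM against 57.3 and 59.6 CPM, a log2 difference of 0.26 (edgeR adjusted p = 0.393). MORC3 was measured at 38.8 and 37.3 CPM against 35.1 and 34.9 CPM, a log2 difference of −0.12. SMCHD1, known for silencing on the inactive X chromosome, ranged from 111 to 156 CPM in the libraries labelled sgControl and from 129 to 165 CPM in those labelled sg53BP1, so its groups overlapped. Without sgControl replicate 2 the log2 differences of MORC2 and SMCHD1 were 0.43 and 0.42, and without sgControl replicate 1 they were 0.15 and −0.058. Of 6 further HUSH partners tested none passed with edgeR, DESeq2 or limma-voom, nor at an unadjusted edgeR p under 0.05. All 6 had a positive log2 fold change, between 0.08 and 0.23, where 47.4% of all tested genes had one.

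**Figure D4:**
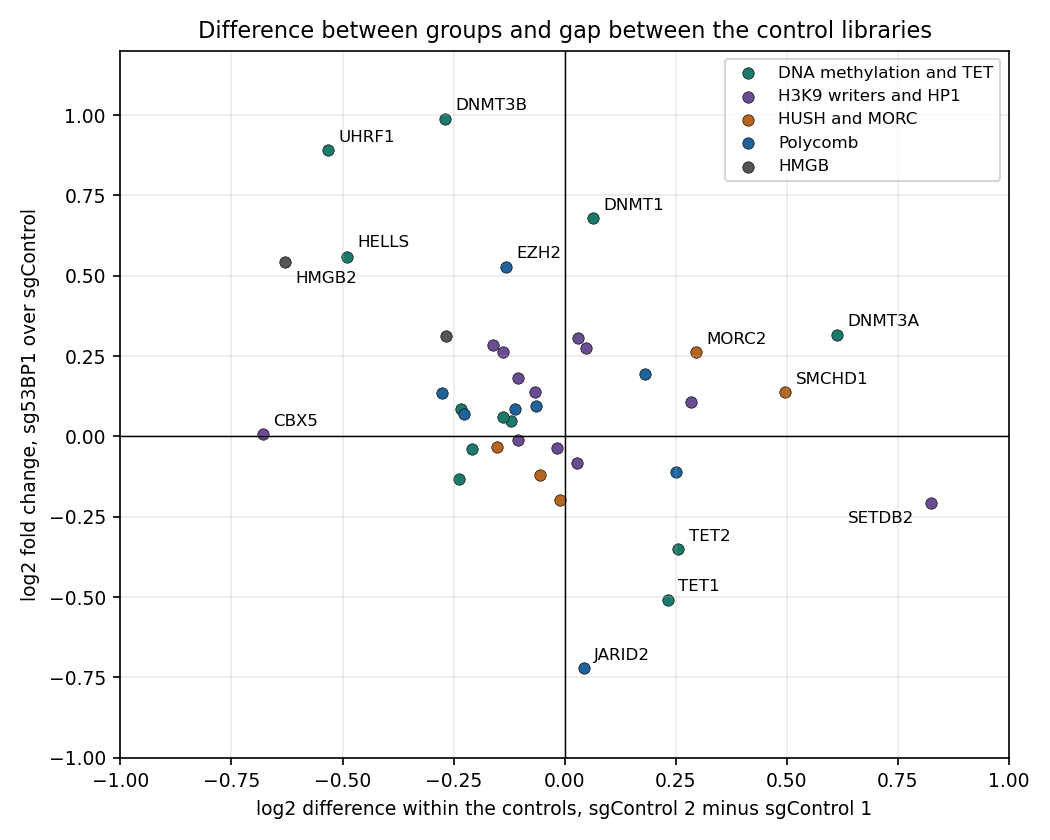
Log2 fold change of each silencing gene between the groups against its log2 difference between the sgControl libraries, replicate 2 minus replicate 1, with 1 point per gene coloured by system. DNMT1, EZH2 and JARID2 lie near the vertical line of equal sgControl libraries, whereas UHRF1, HELLS, HMGB2 and CBX5 were lower in sgControl replicate 2 and DNMT3A, SMCHD1 and SETDB2 higher; both axes use the same sgControl libraries.

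JARID2 was the silencing gene that fell. JARID2 helps to bring PRC2 to its target genes and binds beside AEBP2 in the form of the complex that lacks the Polycomb-like proteins. It was measured at 842 and 878 counts under the sgControl label and at 558 and 569 counts under the sg53BP1 label, or 50.7 and 52.3 CPM against 30.9 and 31.6 CPM. Both pairs of libraries agreed closely and the groups were far apart. The mean fell from 51.5 ± 1.08 to 31.2 ± 0.530 CPM (SD, n = 2 each), 1.65-fold lower, or −0.72 ± 0.13 (SE) on the log2 scale (edgeR adjusted p = 0.0164). The authors' deposited table also has JARID2 higher in the sgControl columns (adjusted p = 0.00498). The call was also made with DESeq2 and limma-voom and without either sgControl library, and it was lost without sg53BP1 replicate 1 or 2 (−0.70 and −0.73; adjusted p = 0.383 and 0.396). The antisense gene JARID2-AS1 had at most 2 counts in a library.

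None of the core subunits of PRC2 passed in either direction. EZH2, the catalytic subunit of dividing cells, was measured at 63.3 and 57.8 CPM under the sgControl label and at 88.2 and 86.4 CPM under the sg53BP1 label, a log2 difference of 0.53 with a standard error of 0.13. The EZH2 groups did not overlap, and the adjusted p lay just outside the threshold at 0.0515 (edgeR). EZH2 was called with library totals (adjusted p = 0.0493), DESeq2 size factors (0.0484), the DESeq2 Wald test (0.00828), no low-count filter (0.00652) and without sgControl replicate 1 or 2 (1.37e-04 and 0.00721), each time higher; the authors' deposited table gives 0.0241. It was not called with limma-voom (adjusted p = 0.0789), at a mean of at least 5 CPM (0.0521), with a replicate block (0.101) or without sg53BP1 replicate 1 or 2 (0.579 and 0.576). EZH1, the paralogue of resting cells, stood at 28.5 and 27.3 CPM against 27.9 and 31.6 CPM (log2 difference 0.09, 95% interval −0.24 to 0.42). EED, which reads the mark that PRC2 lays down, was measured at 28.4 and 32.2 against 34.6 and 34.8 CPM, a log2 difference of 0.20 (95% interval −0.13 to 0.52). The scaffold SUZ12 was measured at 109.6 and 101 against 117 and 107 CPM, a log2 difference of 0.09 (95% interval −0.20 to 0.37), with groups that overlapped.

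Within a library, the ratio of JARID2 to EZH2 per kilobase was 0.417 and 0.471 where sgControl is labelled and 0.182 and 0.190 where sg53BP1 is labelled. The ratio of JARID2 to SUZ12 was 0.353 and 0.393 against 0.201 and 0.226. EZH2 exceeded EZH1 in all 4 libraries, 3.52-fold and 3.36-fold against 5.02-fold and 4.33-fold per kilobase. EZH2 relative to SUZ12 stood at 0.847 and 0.835 against 1.10 and 1.19. For each of these ratios the groups did not overlap, and no test was made on them.

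**Figure D5:**
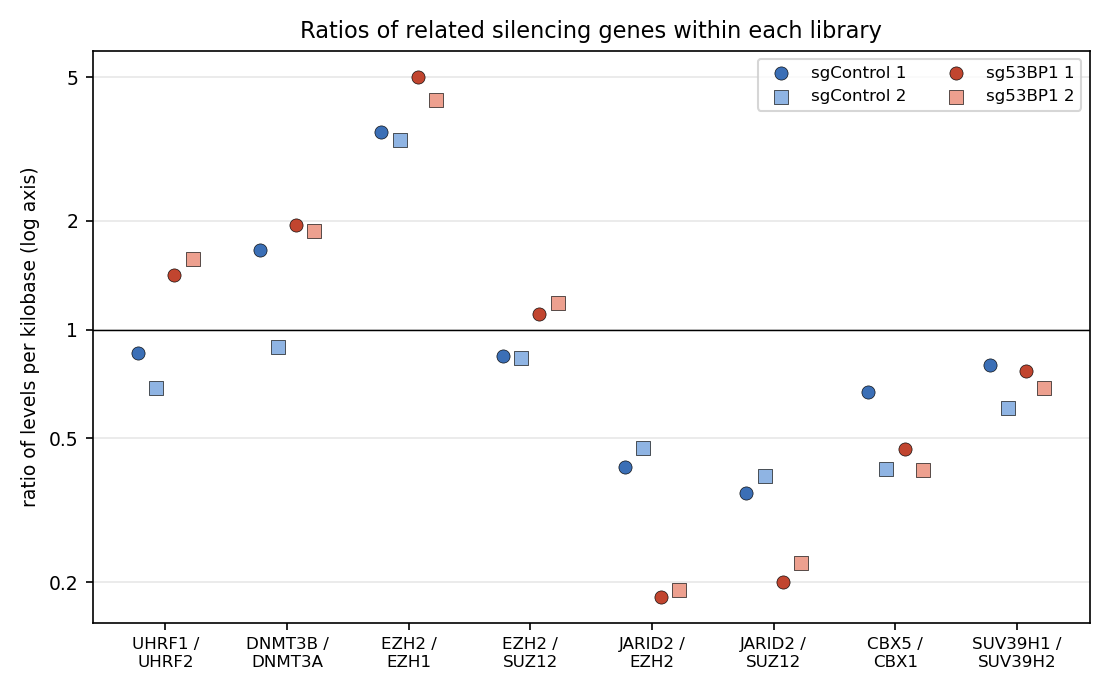
Ratio of levels per kilobase for 8 pairs of silencing genes in each library, on a log axis, with 1 point per library. The sg53BP1 points lie above both sgControl points for UHRF1 over UHRF2, DNMT3B over DNMT3A, EZH2 over EZH1 and EZH2 over SUZ12, and below them for JARID2 over EZH2 and over SUZ12, while CBX5 over CBX1 and SUV39H1 over SUV39H2 overlap.

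The catalytic genes of Polycomb repressive complex 1 did not pass. RING1 was measured at 32.1 and 38.2 CPM under the sgControl label and at 28.8 and 36.4 CPM under the sg53BP1 label, and RNF2, the other ubiquitin ligase, at 32.4 and 27.7 against 33.6 and 29.5 CPM. Both overlapped, with log2 differences of −0.11 and 0.07. BMI1, which activates these ligases, stood at 49.8 and 41.1 against 49.7 and 50.2 CPM, a log2 difference of 0.14 (95% interval −0.20 to 0.47). Of 39 further Polycomb subunits and erasers of their marks none passed with edgeR or limma-voom, and the median log2 fold change was 0.024. At an unadjusted edgeR p under 0.05, 9 passed (23.1%, against 19.3% of all tested genes). Of these 39 the DESeq2 Wald test called 2 higher and 1 lower, where it called 7.71% of all tested genes in either direction. CBX2, a reader of the Polycomb mark, and RBBP4, a histone-binding subunit of PRC2 and other complexes, were the higher, and PCGF5 the lower. These 3 were chosen after their values were seen, and their edgeR log2 fold changes were 1.02, 0.49 and −0.59 (adjusted p = 0.0890, 0.0565 and 0.0565). CBX2 moved to 1.53 without sgControl replicate 1 and to 0.66 without sgControl replicate 2. When 1 library was left out, RBBP4 ranged from 0.44 to 0.59 and PCGF5 from −0.70 to −0.41. None of the 3 was called when either sg53BP1 library was left out.

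Genes that these systems are known to silence gave few values. Of 45 germline genes that DNA methylation keeps off in body cells, 14 were in the table and 1, SSX1, had enough counts to be tested. SSX1 was measured at 181 and 50 counts under the sgControl label and at 79 and 80 counts under the sg53BP1 label, which lay between them, and each of the other 13 had at most 16 counts in a library. Of 39 HOX genes, classical targets of Polycomb, 19 were in the table and 10 were tested. None of the 10 rose and 1 fell (10.0%, against 3.01% of all tested genes). The gene that fell was HOXB9 (edgeR adjusted p = 0.0324), from 33.6 ± 1.15 to 21.2 ± 0.0115 CPM (SD, n = 2 each), 1.59-fold lower. The HOX median was −0.46, within a range of −1.28 to 1.22. In 7 of the 10 both sg53BP1 libraries lay below both sgControl libraries, against 25.9% of all tested genes. The median absolute log2 gap between the sgControl libraries was 0.54 for these 10, against 0.23 over all tested genes. Only 4 of the 10 reached a mean of 5 CPM. HOXB9 lost its call without sg53BP1 replicate 1 or 2 (adjusted p = 0.465 and 0.505) and with limma-voom (adjusted p = 0.0614).

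HMGB1 and HMGB2, abundant DNA-bending proteins of chromatin that are not silencing factors in the strict sense, had positive log2 fold changes and did not pass. HMGB2 was measured at 220 and 142 CPM under the sgControl label and at 266 and 261 CPM under the sg53BP1 label, a log2 difference of 0.54 (standard error 0.21; edgeR adjusted p = 0.217). HMGB1 was measured at 540 and 449 CPM against 615 and 613 CPM, a log2 difference of 0.31 (edgeR adjusted p = 0.242). For neither gene did the groups overlap, and in both sgControl replicate 1 lay nearer to the sg53BP1 libraries than replicate 2 did. Without sgControl replicate 1 the log2 differences were 0.92 for HMGB2 and 0.48 for HMGB1, and without sgControl replicate 2 they were 0.27 and 0.19. HMGB1 has 48 pseudogenes named after it in GENCODE release 29, 7 of them in the count table, so its counts are uncertain.

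The median absolute log2 gap between the libraries of a group was 0.18 within sgControl and 0.080 within sg53BP1 over the 39 genes, and 0.23 and 0.15 over all tested genes. The H3K9 writers and HP1 genes had the opposite order, 0.10 within sgControl and 0.13 within sg53BP1. Order of abundance was compared per kilobase of exon from the scaled CPM, with means over the sgControl libraries. TRIM28 led at 109, followed by HMGB2 at 85.3, HMGB1 at 67.2, CBX3 at 62.2 and CBX1 at 57.0; the lowest were DNMT3B at 1.60, DNMT3A at 1.34 and TET1 at 0.361. Among these the library values overlapped between TRIM28 and HMGB2, HMGB2 and HMGB1, HMGB1 and CBX3, and DNMT3B and DNMT3A, and they did not between CBX3 and CBX1 or DNMT3A and TET1. Within PRC2 the order was SUZ12 at 23.5, EZH2 at 19.8, JARID2 at 8.75, EED at 8.34 and EZH1 at 5.74 in the libraries labelled sgControl, and EZH2 at 28.5, SUZ12 at 24.9, EED at 9.55, EZH1 at 6.13 and JARID2 at 5.31 in those labelled sg53BP1. JARID2 and EED overlapped in the sgControl libraries, and the other neighbours in both orders did not. JARID2 was the lowest of these 5 genes in the sg53BP1 libraries only.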

How the data were processed

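The 4 RNA-seq libraries came from hTERT-RPE1 cells. The submitters' processing notes name the build hg19 and the tools Bowtie2 2.2.3, HTSeq 0.6.0 and HISAT2 2.1.0. For what each served, and for the annotation and counting strand, nothing is given in the sources used here. Reads of overlapping genes therefore cannot be told apart, and 21 of the 39 silencing genes overlap another gene. The authors deposited 1 table with raw read counts per gene and library. Beside the counts, the deposited columns of the authors' own comparison hold a log2 fold change, p-values, a statistic (a score) and a mean level (a signal); the sign was control over knockout for 97.76% of 11943 genes and was turned.

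The table had 20050 rows for 19653 Ensembl identifiers, and 397 repeated rows were removed. Counts were tested with edgeR 4.0.16 in R 4.3.3 (filterByExpr, TMM, robust quasi-likelihood F test, group as the term) over 13140 genes, with Benjamini-Hochberg adjustment and a threshold of 0.05. Standard errors and 95% intervals were calculated back from the F statistic. Levels are CPM as mean ± SD of 2 libraries, divided by exon length from GENCODE release 29 where genes were compared. That release is on GRCh38, so only lengths and overlaps were taken from it. Promoters came from RefSeq (GRCh38.p14). Alternatives were DESeq2 size factors, library totals, other filters, DESeq2 1.42.0, limma-voom (limma 3.58.1), a minimum change of 1 on the log2 scale, a replicate block, and each library left out. Named genes were all silencing genes, TP53BP1 and up to 4 called members of each related list; others named were chosen after their values were seen. The silencing genes and lists were chosen with earlier results of these data known.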

Additional observations from a re-analysis of the deposited data

How the results depend on the processing

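The number of genes called, 667 of all tested and 4 of the silencing genes (3 higher, 1 lower), became 1548 and 7 (6 higher, with EZH2, HELLS and HMGB2) with no low-count filter. It became 404 and 2 (1 higher) with limma-voom, and 368 and 0 (0 higher, 0 lower) with a minimum change of 1 on the log2 scale. Leaving out 1 library gave 5 to 3358 genes, 0 to 14 silencing genes, 0 to 11 higher and 0 to 3 lower. In those fits the remaining sample of the shortened group is taken to vary as the complete group does. With the replicate number as a block, 297 genes and 0 silencing genes (0 higher, 0 lower) were called; adjusted p was 0.0578 for DNMT1, 0.0597 for UHRF1, 0.0881 for DNMT3B and 0.0565 for JARID2. The deviations of same-numbered libraries from their group means had r = 0.029 across 13140 genes. With 2 libraries a group, each gene has only 1 deviation per group, so this value cannot tell whether the numbers pair cultures. No label says whether they do. DESeq2 size factors and library totals called 657 and 654 genes, a mean of at least 5 CPM 547 and the DESeq2 Wald test 993, and TET1 had no value at a mean of at least 5 CPM. Signs turned for ATRX with DESeq2 size factors (0.0018) and the DESeq2 Wald test (0.0018). When 1 library was left out, the log2 fold change ranged from −0.13 to 0.10 for UHRF2, −0.24 to 0.025 for TET3, −0.036 to 0.14 for MBD1, −0.020 to 0.24 for MBD2, −0.0085 to 0.17 for MBD4, −0.53 to 0.28 for SETDB2 and −0.10 to 0.030 for EHMT2. It ranged from −0.29 to 0.42 for CBX5, −0.15 to 0.13 for ATRX, −0.10 to 0.076 for PPHLN1, −0.058 to 0.42 for SMCHD1, −0.29 to 0.053 for RING1 and −0.031 to 0.22 for RNF2. The cause of these changes was not tested. With 2 libraries a group, genes of few counts such as TET1 have wide intervals, which limits what can be read from them.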
